A study of Homo sapiens with 26 samples.

Results

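The HOXA, MEIS1 and MLL fusion programme was followed through 10 genes in MV4-11 cells. This established line comes from a human acute myeloid leukaemia and carries an activating FLT3 mutation and the fusion of KMT2A with AFF1 known as MLL-AF4. The members were the rows whose gene symbol is HOXA5, HOXA7, HOXA9, HOXA10, MEIS1, PBX3, MEF2C, JMJD1C, KMT2A or AFF1. In the drug experiment 8 of the 10 members had a row among 16430 genes, and HOXA5 and HOXA7 matched none and were not analysed there. In the recovery experiment all 10 had a row among 64235 entries.

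RNA was sequenced from 26 libraries of these cells grown in culture. The drug experiment held 18 libraries, 3 for each of 6 groups. At 48 h the groups were the solvent DMSO, the glucocorticoid dexamethasone at 100 nM, the FLT3 kinase inhibitor quizartinib at 10 nM, and both drugs together, called the combination. At 5 days they were 10 nM quizartinib and the combination, in which dexamethasone was added on day 3, and no DMSO group of 5 days stands beside them. The recovery experiment held 2 libraries for each of 4 groups. These were untreated cells, cells that outlived 48 h in 100 nM quizartinib (the survivors), and survivors grown on for 13 or 30 drug-free days. All libraries come from a single cell line, and the labels do not say whether libraries of a group were separate cultures, so each p measures only the spread between these libraries.

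KMT2A encodes MLL, a histone methyltransferase that keeps HOX genes active in blood progenitors. In MLL-rearranged leukaemia its N-terminal part is joined to a partner such as AFF1, a subunit of the super elongation complex, and the fusion protein, held on chromatin by menin and LEDGF (PSIP1), recruits DOT1L and the elongation factor P-TEFb. Its best known targets are the posterior HOXA genes and MEIS1. HOXA9 and HOXA10 are homeodomain transcription factors, and MEIS1 and PBX3 are homeodomain proteins of the TALE family that bind DNA together with them. MEF2C is a MADS-box transcription factor that the programme switches on, and JMJD1C is a Jumonji protein of the histone H3 lysine 9 demethylase family that HOXA9-driven leukaemia cells need. Reads were counted per gene, so a KMT2A or AFF1 value pools the normal and the fused transcripts.

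A single promoter window is shown for each of 6 members that the results below describe. HOXA7 lies in the HOXA cluster beside HOXA9 and HOXA10 and was listed near 0, HOXA9 and HOXA10 were abundant, and MEIS1, PBX3 and JMJD1C stand for the partners and for the member with the largest change with quizartinib at 48 h. Each window runs from 250 bases before to 50 bases after a RefSeq transcript start on GRCh38.p14 and is written 5′ to 3′ on the gene's strand. Capitals mark matches to the MEIS core TGACAG or to the HOX-PBX motif TGATTNAT on either strand.
HOXA7, chr7:27156626-27156925, minus strand: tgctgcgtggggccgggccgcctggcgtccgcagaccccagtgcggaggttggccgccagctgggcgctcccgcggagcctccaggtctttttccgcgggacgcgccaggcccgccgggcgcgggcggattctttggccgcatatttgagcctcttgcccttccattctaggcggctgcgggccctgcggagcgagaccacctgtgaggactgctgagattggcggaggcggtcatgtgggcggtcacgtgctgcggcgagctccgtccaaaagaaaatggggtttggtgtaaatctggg
HOXA9, chr7:27165488-27165787, minus strand: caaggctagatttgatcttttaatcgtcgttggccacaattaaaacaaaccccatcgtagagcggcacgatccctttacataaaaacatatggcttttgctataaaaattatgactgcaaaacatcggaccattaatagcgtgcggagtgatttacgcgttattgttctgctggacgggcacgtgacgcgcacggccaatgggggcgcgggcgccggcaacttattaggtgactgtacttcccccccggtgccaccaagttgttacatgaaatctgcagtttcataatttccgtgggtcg
HOXA10, chr7:27179812-27180111, minus strand: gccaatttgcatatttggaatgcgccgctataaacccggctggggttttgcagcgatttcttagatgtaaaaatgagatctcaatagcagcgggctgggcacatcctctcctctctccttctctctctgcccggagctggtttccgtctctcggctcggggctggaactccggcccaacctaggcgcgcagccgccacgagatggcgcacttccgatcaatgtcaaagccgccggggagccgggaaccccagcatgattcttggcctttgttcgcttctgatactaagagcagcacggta
MEIS1, chr2:66434875-66435174, plus strand: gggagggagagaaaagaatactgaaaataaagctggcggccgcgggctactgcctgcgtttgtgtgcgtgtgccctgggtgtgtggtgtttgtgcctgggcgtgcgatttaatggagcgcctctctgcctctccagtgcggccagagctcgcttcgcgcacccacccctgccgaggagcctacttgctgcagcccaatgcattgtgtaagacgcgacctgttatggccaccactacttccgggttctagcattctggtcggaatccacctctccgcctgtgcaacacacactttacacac
PBX3, chr9:125747933-125748232, plus strand: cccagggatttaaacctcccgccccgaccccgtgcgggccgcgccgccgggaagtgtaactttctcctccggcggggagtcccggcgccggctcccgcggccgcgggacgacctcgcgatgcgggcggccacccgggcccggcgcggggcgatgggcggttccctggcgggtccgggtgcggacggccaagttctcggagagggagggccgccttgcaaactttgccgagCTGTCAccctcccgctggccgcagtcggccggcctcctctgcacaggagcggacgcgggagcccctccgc
JMJD1C, chr10:63521841-63522140, minus strand: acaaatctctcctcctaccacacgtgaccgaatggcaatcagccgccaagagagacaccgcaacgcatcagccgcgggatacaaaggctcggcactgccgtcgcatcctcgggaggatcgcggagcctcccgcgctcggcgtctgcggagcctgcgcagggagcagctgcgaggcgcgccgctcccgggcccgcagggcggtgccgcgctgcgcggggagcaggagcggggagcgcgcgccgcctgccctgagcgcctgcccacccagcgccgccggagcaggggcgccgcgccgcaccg

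The RefSeq table held 19 windows for 9 of the members and none for HOXA5, among 35116 windows in all. In the windows shown, CpG dinucleotides numbered 31 for HOXA7, 22 for HOXA9, 21 for HOXA10, 18 for MEIS1, 43 for PBX3 and 44 for JMJD1C, against a median of 14 over all windows. Windows at other transcript starts, not shown, held 25 for HOXA10 and 6 and 42 for JMJD1C. HOXA7 thus had more CpG dinucleotides than HOXA9 or HOXA10, and its GC content was 68% against 48% and 56.7%. The MEIS core was found in the PBX3 window, starting at base 231, and in 3 of 7 MEF2C windows, and 15.8% of all windows hold it. No member window held TGATTNAT, which 2.82% of all windows hold. The STAT motif TTCNNNGAA was found in 1 of 2 AFF1 windows and in 1 MEF2C window, against 7.66% of all windows, and the palindromic glucocorticoid receptor motif in no member window, against 0.00285%. No match overlapped another, and a match describes letters, not a bound site.

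In the drug experiment a library held 14795190 to 24990476 counts, and a member had between 785 and 10186 counts in a library. The depth behind an FPKM is unknown. The small RNAs 7SK and 7SL, of which 7SK holds P-TEFb inactive, took 10.2% to 12.41% of the counts of DMSO libraries, 16.02% to 18.78% with quizartinib at 48 h and 21.47% to 31.6% with the combination at 48 h. At 48 h the libraries with number 3 lay away from those with number 1 or 2 on principal component 3, at -39.05 against 23.43 and 21.84 in DMSO. Myelomonocytic markers were present, and 7 of 8 had a row. Their summed level was 1010 to 1320 CPM in DMSO, 616 to 698 CPM with dexamethasone, 1500 to 1960 CPM with quizartinib and 1060 to 1170 CPM with the combination at 48 h, and at 5 days 1820 to 1980 CPM with quizartinib and 1170 to 1270 CPM with the combination. The lysozyme gene LYZ carried the lower sums with dexamethasone, at 524 to 830 CPM in DMSO, 99.1 to 121 CPM with dexamethasone, 621 to 1080 CPM with quizartinib and 135 to 149 CPM with the combination at 48 h. The other 6 markers together were at 482 to 547, 495 to 577, 873 to 881 and 915 to 1030 CPM in the same groups, and at 908 to 928 CPM with quizartinib and 985 to 1060 CPM with the combination at 5 days. FLT3 had the highest mean of these, at 317, 373, 450 and 661 CPM in the 48 h groups. It alone of the 6 had a higher mean with the combination than with quizartinib at 48 h. The means of CSF1R (163 to 90 CPM), CSF3R (153 to 134 CPM), CD33 (100 to 95.6 CPM), ITGAM (7.12 to 3.89 CPM) and MPO (2.47 to 2.3 CPM) were lower. With dexamethasone alone CSF1R went from 44.8 to 28.9 CPM, and only FLT3 and ITGAM had higher means than in DMSO. Of the 7 markers, dexamethasone against DMSO called 2 lower and 0 higher, where 12.1% of all genes were called. The combination against quizartinib at 48 h called 1 higher and 2 lower, where 10.3% were. The part of these markers in the results was not tested. In contrast, B cell markers summed to 1.59 to 3.97 CPM and the 4 erythroid and megakaryocytic markers matched no row. Fibroblast and epithelial markers summed to 7.72 to 23.3 CPM, the highest value being in a combination library of 48 h. Of the T and NK cell markers NKG7 alone had a row, at 11.3 to 22.1 CPM. In the recovery experiment NKG7 was at 64.1 to 115 FPKM after 13 days off drug, against 23 to 38.6 FPKM in untreated cells.

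Of the protein-coding genes of the HOXA cluster, MV4-11 cells held mainly HOXA9 and HOXA10 RNA. HOXA9 (chromosome 7, 27162435 to 27175180, minus strand, GRCh38 and GENCODE 29 here and below) was at 107 and 95.1 FPKM in untreated cells. HOXA10 (chromosome 7, 27170591 to 27180261) was at 37.3 and 37.8 FPKM. FPKM is scaled by transcript length, so levels can be compared between genes. HOXA7 (chromosome 7, 27153716 to 27157936), the next gene on the anterior side of HOXA9, was at 0.0554 FPKM in 1 untreated library and listed at 0 in the other. Over all 8 libraries it was above 0 in 3, with a highest value of 0.192 FPKM. HOXA5 (chromosome 7, 27141052 to 27143668) was at 0.115 FPKM in 1 untreated library and listed at 0 in the other 7. Both stayed under the filter of 1 FPKM in 2 libraries and were not tested, and a value of 0 can be a failed estimate. Of the exon bases of HOXA7, 62.5% overlap the antisense gene HOXA-AS3, itself at most at 0.012 FPKM, and how reads there were assigned was not tested. Among their neighbours HOXA6 reached at most 0.0596 FPKM, HOXA4 0.447 FPKM, HOXA3 0.238 FPKM and HOXA13 0.0545 FPKM, and HOXA11, next to HOXA10 on the posterior side, ran from 0 to 1.7 FPKM.

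**Figure D1:**
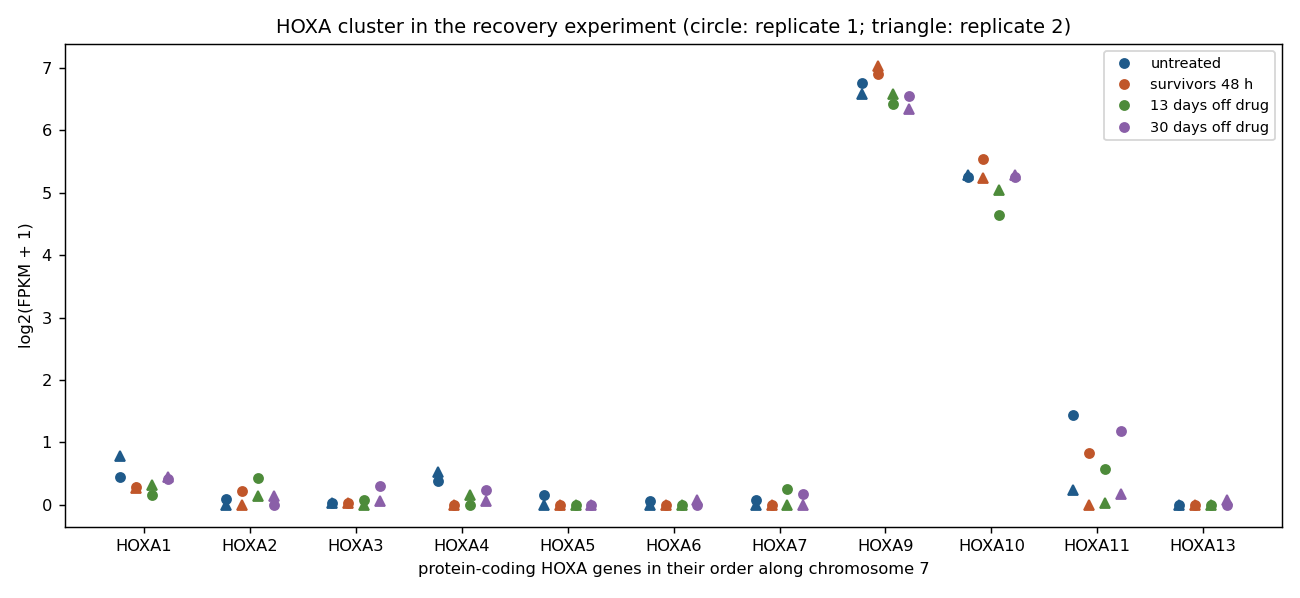
The level of the 11 protein-coding HOXA genes in the recovery experiment, as log2(FPKM + 1) on the vertical axis and in gene order on the horizontal axis, with a point for each of the 8 libraries coloured by group. HOXA9 (80.4 to 130 FPKM) and HOXA10 (24 to 45.5 FPKM) stand above every other protein-coding gene of the cluster in all 4 groups, and HOXA5 and HOXA7 lie at or near 0.

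The remaining members followed below HOXA9 in untreated cells. MEIS1 (chromosome 2, 66433452 to 66573869) was at 84.1 and 69.2 FPKM, MEF2C (chromosome 5, 88717117 to 88904257) at 59.5 and 55.3 FPKM, and PBX3 (chromosome 9, 125747345 to 125967377) at 41.7 and 51.1 FPKM. JMJD1C (chromosome 10, 63167221 to 63521850) was at 31.7 and 42.8 FPKM, AFF1 (chromosome 4, 86935002 to 87141054) at 19.3 and 16.8 FPKM, and KMT2A (chromosome 11, 118436464 to 118526832) at 19.6 and 13.9 FPKM. In this order HOXA9, MEIS1 and MEF2C did not overlap, the values of JMJD1C spanned those of HOXA10 and reached the lower PBX3 value, and the KMT2A values spanned those of AFF1. CPM (counts scaled to library size) divided by the exon length of the gene gave another order in DMSO cells of the drug experiment. There AFF1 stood at 27.5 ± 3.04 and JMJD1C at 25.1 ± 3.51 CPM per kb, above HOXA9 at 17.8 ± 3.17 and KMT2A at 11.0 ± 0.267 CPM per kb (SD, n = 3 each). MEIS1, next below HOXA9 by FPKM, stood at 12.2 ± 0.404 CPM per kb. By mean it lay below PBX3 at 16.8 ± 0.718, MEF2C at 15.0 ± 1.17 and HOXA10 at 13.5 ± 2.36 CPM per kb. The experiments used different pipelines and length measures, so this difference in order was not tested.

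HOXA9, HOXA10, MEIS1 and their partners stayed expressed under quizartinib for 48 h. Against DMSO, 3 of the 8 members with counts rose (JMJD1C, MEIS1 and HOXA10) and none fell, where 59.4% of all 16430 genes were called in either direction and 29.0% higher (edgeR, adjusted p under 0.05). The median size of the members' log2 fold change was 0.221, against 0.57 over all genes. All 8 members had a mean of at least 10 CPM, as did only 9207 of all genes. Here and below these medians thus compare genes of unlike level. With the combination, 4 members rose (HOXA9, HOXA10, MEIS1 and JMJD1C) and 2 fell (MEF2C and KMT2A), against 63.1% of all genes called, 31.3% higher and 31.8% lower, with a median size of 0.244 against 0.617. After 5 days of quizartinib 2 members were above DMSO of 48 h (JMJD1C and MEIS1), against 62.8% called and 30.7% called higher, with a median size of 0.079 against 0.627. Time and drug cannot be told apart in that comparison. These comparisons share the DMSO libraries, and in bulk RNA a change per cell and a change in the mix of cells cannot be told apart.

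**Figure D2:**
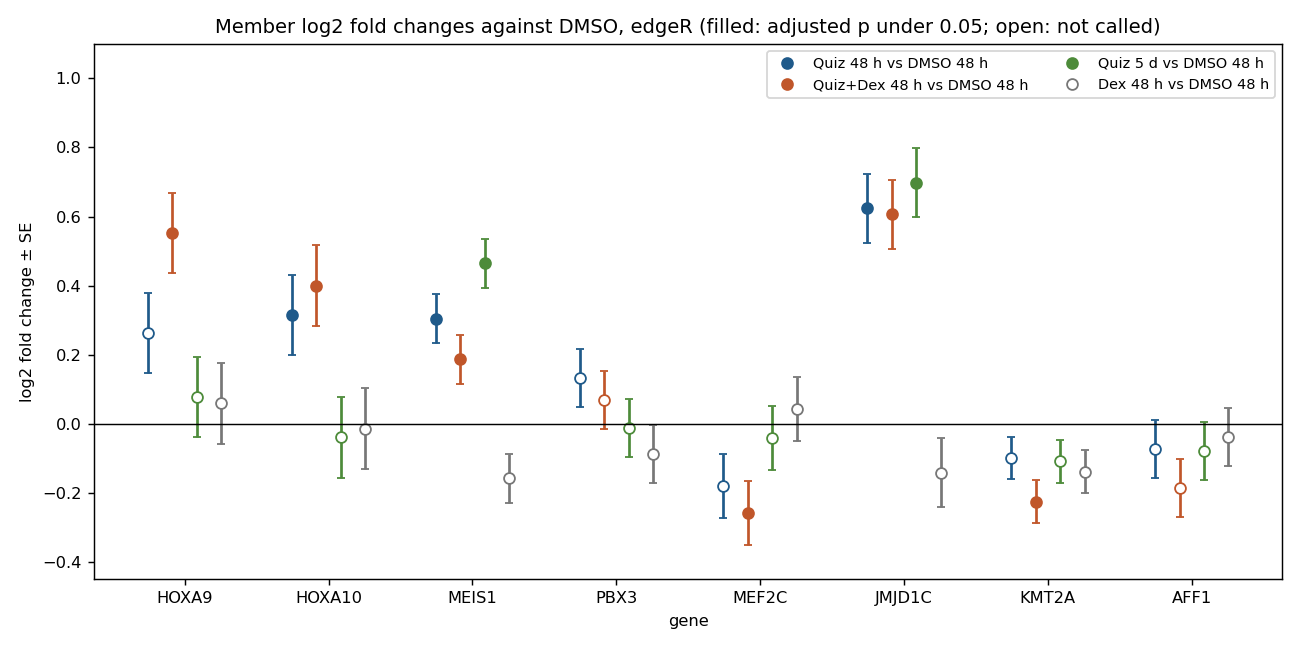
The log2 fold change of each of the 8 members with counts against DMSO of 48 h, with bars of 1 standard error, for quizartinib, the combination and dexamethasone at 48 h and quizartinib at 5 days; filled points passed edgeR's adjusted p under 0.05 and open points did not. JMJD1C lies between 0.61 and 0.70 with quizartinib or the combination, and the KMT2A and AFF1 points lie below 0 (under upper quartile scaling those with quizartinib alone, and AFF1 with the combination, lie above 0).

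The size of these shifts depends on the scaling. Upper quartile scaling moved the median log2 fold change of all genes for quizartinib against DMSO at 48 h from 0.021 to 0.245, and library totals without 7SK and 7SL moved it to 0.139. The share of calls that were higher went to 64.5% and 57.2%. Under either of these scalings 5 members were called higher (HOXA9 and PBX3 in addition), and KMT2A, AFF1 and MEF2C turned from below to slightly above 0 under the upper quartile, at 0.13, 0.15 and 0.05, and were not called. Relative to the median of all genes, JMJD1C stood at 0.60, HOXA10 at 0.29, MEIS1 at 0.28 and HOXA9 at 0.24 under TMM and upper quartile scaling alike.

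Among the 8 members, JMJD1C had the largest log2 fold change for quizartinib against DMSO at 48 h and at 5 days. Its level was 233, 298 and 303 CPM in DMSO, 403, 438 and 444 CPM with quizartinib at 48 h and 430, 426 and 413 CPM with the combination. At 5 days it was 428, 463 and 462 CPM with quizartinib and 494, 490 and 485 CPM with the combination. Every library with quizartinib lay above every library without it, since dexamethasone alone gave 214, 274 and 267 CPM. The log2 fold change against DMSO was 0.62 ± 0.10 for quizartinib (SE, edgeR adjusted p = 4e-05) and 0.61 ± 0.10 for the combination (adjusted p = 4.8e-05), and at 5 days 0.70 ± 0.10 (adjusted p = 1.1e-05). These 3 calls held in each alternative run. Survivors of 100 nM quizartinib stood at 59.6 and 70.3 FPKM against 31.7 and 42.8 FPKM in untreated cells, without overlap, but the change did not pass the test with 2 libraries a group (log2 of FPKM plus 1, 0.80 ± 0.38, limma adjusted p = 0.19).

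MEIS1, the TALE partner of HOXA9, gave 128, 135 and 136 CPM in the DMSO libraries, and with quizartinib at 48 h it gave 160, 171 and 161 CPM. After 5 days it was at 175, 194 and 181 CPM with quizartinib and 179, 186 and 175 CPM with the combination. All libraries with quizartinib lay above those of DMSO, and the values of 5 days lay above those of 48 h. Against DMSO it rose by a log2 fold change of 0.30 ± 0.07 at 48 h (edgeR adjusted p = 0.0015) and of 0.46 ± 0.07 at 5 days (adjusted p = 2.4e-05). The difference between 5 days and 48 h of quizartinib was 0.16 ± 0.07 and did not pass (adjusted p = 0.26). With the combination at 48 h MEIS1 was at 154, 155 and 144 CPM, a rise over DMSO of 0.19 ± 0.07 (adjusted p = 0.031). This call was lost without DMSO library 1 or 2 (adjusted p = 0.097 and 0.051) and without combination library 1 or 2 (0.11 and 0.12).

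HOXA9 stood highest with the combination, while HOXA10 with the combination at 48 h overlapped quizartinib alone (0.085 ± 0.116 between them, edgeR adjusted p = 0.76). HOXA9 was at 50, 47.1 and 65 CPM in DMSO, 51.7, 53.6 and 63.6 CPM with dexamethasone, 68.9, 62.5 and 63 CPM with quizartinib and 82.2, 84.5 and 70.9 CPM with the combination at 48 h. At 5 days it was at 58.3, 51.9 and 60.8 CPM with quizartinib and 71.7, 84 and 76.6 CPM with the combination. The combination libraries lay above all others at both times, while those of quizartinib alone overlapped DMSO library 3. Over DMSO the combination gave 0.55 ± 0.12 (edgeR adjusted p = 0.00053). Quizartinib alone gave 0.26 ± 0.12 and missed the threshold (adjusted p = 0.062), which it passed with DESeq2 (0.28, adjusted p = 0.044), without DMSO library 3 (0.42, adjusted p = 0.0034) and without the libraries numbered 3 (0.43, adjusted p = 0.00067).

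Dexamethasone added to quizartinib was tested for each member at 48 h and at 5 days. At 5 days HOXA9 alone of the 8 was called, at 0.44 ± 0.12 over quizartinib (edgeR adjusted p = 0.024), where 8.64% of all genes were called and 4.6% called higher. The groups did not overlap, but the call was lost without quizartinib library 1 or 2 (adjusted p = 0.065 and 0.11) or combination library 2 or 3 (0.13 and 0.06). At 48 h no member was called by edgeR or by DESeq2, against 10.3% of all genes, and 1 of 8 had an unadjusted p under 0.05, against 21.7%. That member was HOXA9, at 0.29 ± 0.12 over quizartinib (adjusted p = 0.14), and it passed without the libraries numbered 3 (0.35, adjusted p = 0.017). The difference between the effects of dexamethasone at 5 days and at 48 h was 0.15 ± 0.16 for HOXA9, and no member was called in it by either tool, where 0.0487% of genes were called and 0 members had an unadjusted p under 0.05, against 3.88% of genes.

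HOXA10 gave 48.2, 42.6 and 59.8 CPM in the DMSO libraries, and with quizartinib at 48 h it gave 60.7, 60.1 and 66.5 CPM. With the combination it was at 68.9, 66.6 and 63.2 CPM. Neither treated group overlapped DMSO, although DMSO library 3, the highest of its group as for HOXA9, lay just under the lowest quizartinib value. The rise was 0.32 ± 0.12 with quizartinib (edgeR adjusted p = 0.027) and 0.40 ± 0.12 with the combination (adjusted p = 0.0064). The former was lost without DMSO library 1 or 2 (adjusted p = 0.079 and 0.15) or quizartinib library 3 (0.094). At 5 days of quizartinib HOXA10 was at 49.3, 44.9 and 52.2 CPM, within the DMSO range, and below all 3 quizartinib libraries of 48 h by 0.36 ± 0.12 on the log2 scale (adjusted p = 0.11). In that comparison of 5 days with 48 h no member was called by edgeR or DESeq2 (3.16% of genes called, and 2 of 8 members had an unadjusted p under 0.05, against 17.3% of genes), and HOXA10 passed in the fit of those 6 libraries alone (adjusted p = 0.029).

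**Figure D3:**
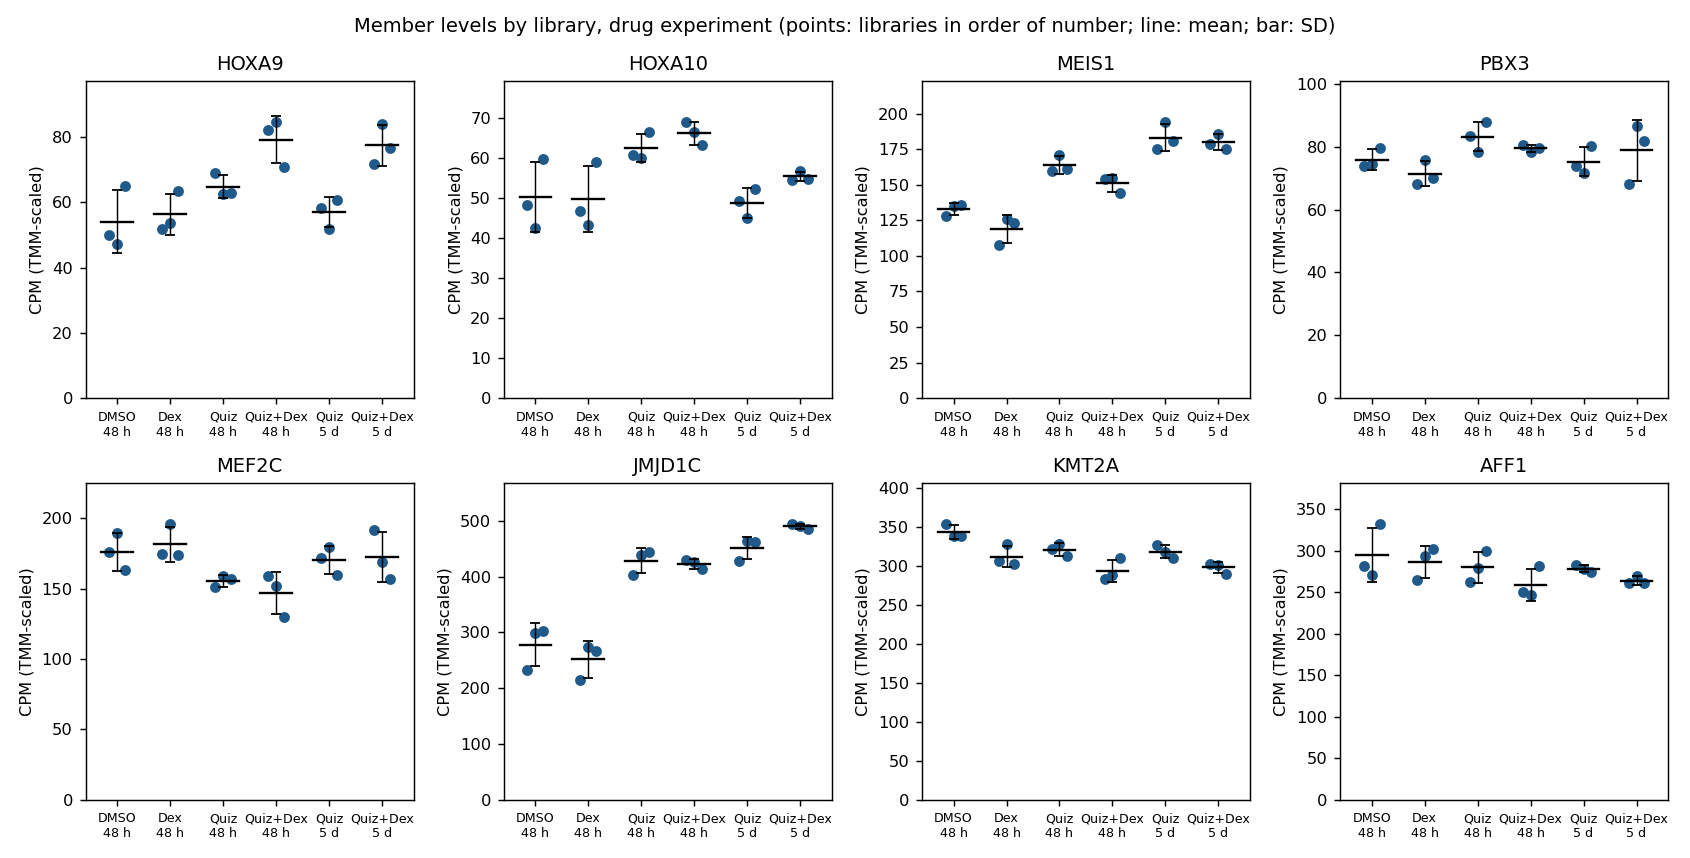
The level of the 8 members with counts in each of the 18 libraries of the drug experiment, in TMM-scaled CPM on an axis from 0, with the mean as a line and the SD as a bar for each group of 3. JMJD1C and MEIS1 lie higher in every group with quizartinib than in DMSO, HOXA9 lies highest in both combination groups (70.9 to 84.5 CPM), and the 4 AFF1 groups of 48 h overlap (246 to 332 CPM).

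PBX3, MEF2C and the fusion partners moved little. PBX3, the other TALE partner of HOXA9, gave 73.8, 74.4 and 79.7 CPM in the DMSO libraries, and with quizartinib at 48 h it gave 83.5, 78.5 and 87.8 CPM (0.13 ± 0.08, edgeR adjusted p = 0.18). The groups overlapped at DMSO library 3. MEF2C was at 176, 190 and 163 CPM in DMSO, 151, 159 and 157 CPM with quizartinib and 159, 152 and 130 CPM with the combination, and neither treated group overlapped DMSO. It fell with the combination by 0.26 ± 0.09 on the log2 scale (adjusted p = 0.022), and the change with quizartinib alone was -0.18 ± 0.09 (adjusted p = 0.11), which passed without the libraries numbered 3 (-0.25, adjusted p = 0.029). The combination differed from quizartinib by -0.08 ± 0.09 (adjusted p = 0.71). At 5 days it was back within the DMSO range in 2 of 3 quizartinib libraries, at 172, 180 and 160 CPM. The call with the combination was lost under upper quartile scaling (-0.05, adjusted p = 0.63), with library totals without 7SK and 7SL (0.23), with those groups fitted alone (0.087) and without DMSO library 2 or combination library 3 (adjusted p = 0.1 and 0.13).

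KMT2A, which supplies the N-terminal part of the fusion, was at 354, 339 and 339 CPM in DMSO. It was at 322, 329 and 313 CPM with quizartinib and at 284, 288 and 310 CPM with the combination at 48 h, and every treated library lay below DMSO. The combination lowered it by 0.23 ± 0.06 (edgeR adjusted p = 0.0041), a call lost under upper quartile scaling (-0.02, adjusted p = 0.8), with library totals without 7SK and 7SL (-0.10, adjusted p = 0.22) and with those groups fitted alone (-0.20, adjusted p = 0.058). AFF1 was at 281, 271 and 332 CPM in DMSO, 262, 279 and 299 CPM with quizartinib and 250, 246 and 281 CPM with the combination, and these groups overlapped. No change of AFF1 passed the test, the largest against DMSO being -0.19 ± 0.08 with the combination (adjusted p = 0.063), which turned to 0.02 under upper quartile scaling and passed as a fall without DMSO library 2 or combination library 3 (adjusted p = 0.031 and 0.026). KMT2A at 5 days of quizartinib was at 327, 318 and 311 CPM and AFF1 at 283, 278 and 274 CPM.

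Dexamethasone alone called no member at 48 h with edgeR or DESeq2, where 12.1% of all genes were called, and 2 of 8 members (KMT2A and MEIS1) had an unadjusted p under 0.05, against 24.2% of all genes. MEIS1 was at 108, 126 and 123 CPM, below the DMSO libraries in each case (-0.16 ± 0.07, edgeR adjusted p = 0.18). KMT2A was at 306, 328 and 303 CPM, also below DMSO (-0.14 ± 0.06, adjusted p = 0.17). PBX3 was at 68.2, 75.9 and 70.2 CPM, MEF2C at 175, 196 and 174 CPM and AFF1 at 265, 293 and 302 CPM. HOXA10 was at 46.8, 43.2 and 59 CPM, all within the DMSO range. The median size of the members' log2 fold change was 0.074, against 0.2 over all genes.

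Quizartinib was also compared in the presence of dexamethasone. The combination against dexamethasone at 48 h called 4 members higher (JMJD1C 0.75 ± 0.10, HOXA9 0.49 ± 0.12, HOXA10 0.42 ± 0.12 and MEIS1 0.35 ± 0.07) and MEF2C lower (-0.30 ± 0.09), where 65.7% of all genes were called, 33.4% higher and 32.3% lower. The MEF2C call was lost under upper quartile scaling (adjusted p = 0.45) and with library totals without 7SK and 7SL (0.14). The interaction, in which the dexamethasone effect in DMSO is subtracted from that in quizartinib, called no member with either tool, where 2.23% of genes were called and 0 members had an unadjusted p under 0.05, against 13.3% of genes. Its largest value was 0.23 ± 0.16 for HOXA9 (edgeR adjusted p = 0.6). The remaining levels were those of the combination at 5 days, where PBX3 was at 68.1, 86.5 and 82 CPM, MEF2C at 192, 169 and 157 CPM, KMT2A at 303, 302 and 290 CPM, AFF1 at 261, 270 and 261 CPM and HOXA10 at 54.6, 56.8 and 54.8 CPM.

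In the recovery experiment the same 8 members were tested with limma on log2(FPKM + 1), and none was called in any of 5 comparisons. Survivors against untreated cells had 0 of 8 members called, where 14.5% of 18098 tested genes were called, and no member had an unadjusted p under 0.05, against 35.3% of all genes. HOXA9 was at 119 and 130 FPKM in survivors, above both untreated values. PBX3 at 57.1 and 58.3 FPKM, MEF2C at 69.2 and 82.9 FPKM, KMT2A at 22.5 and 22.3 FPKM and AFF1 at 22.9 and 30.6 FPKM also lay above their untreated values. MEIS1 at 65.5 and 93 FPKM and HOXA10 at 45.5 and 36.8 FPKM overlapped theirs. How many of all genes lay wholly above untreated cells in survivors was not counted. The median member change was 0.35 on the log2 scale, where the median of all tested genes was 0.179, a shift that fell to 0.098 when the libraries were rescaled by median ratios.

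**Figure D4:**
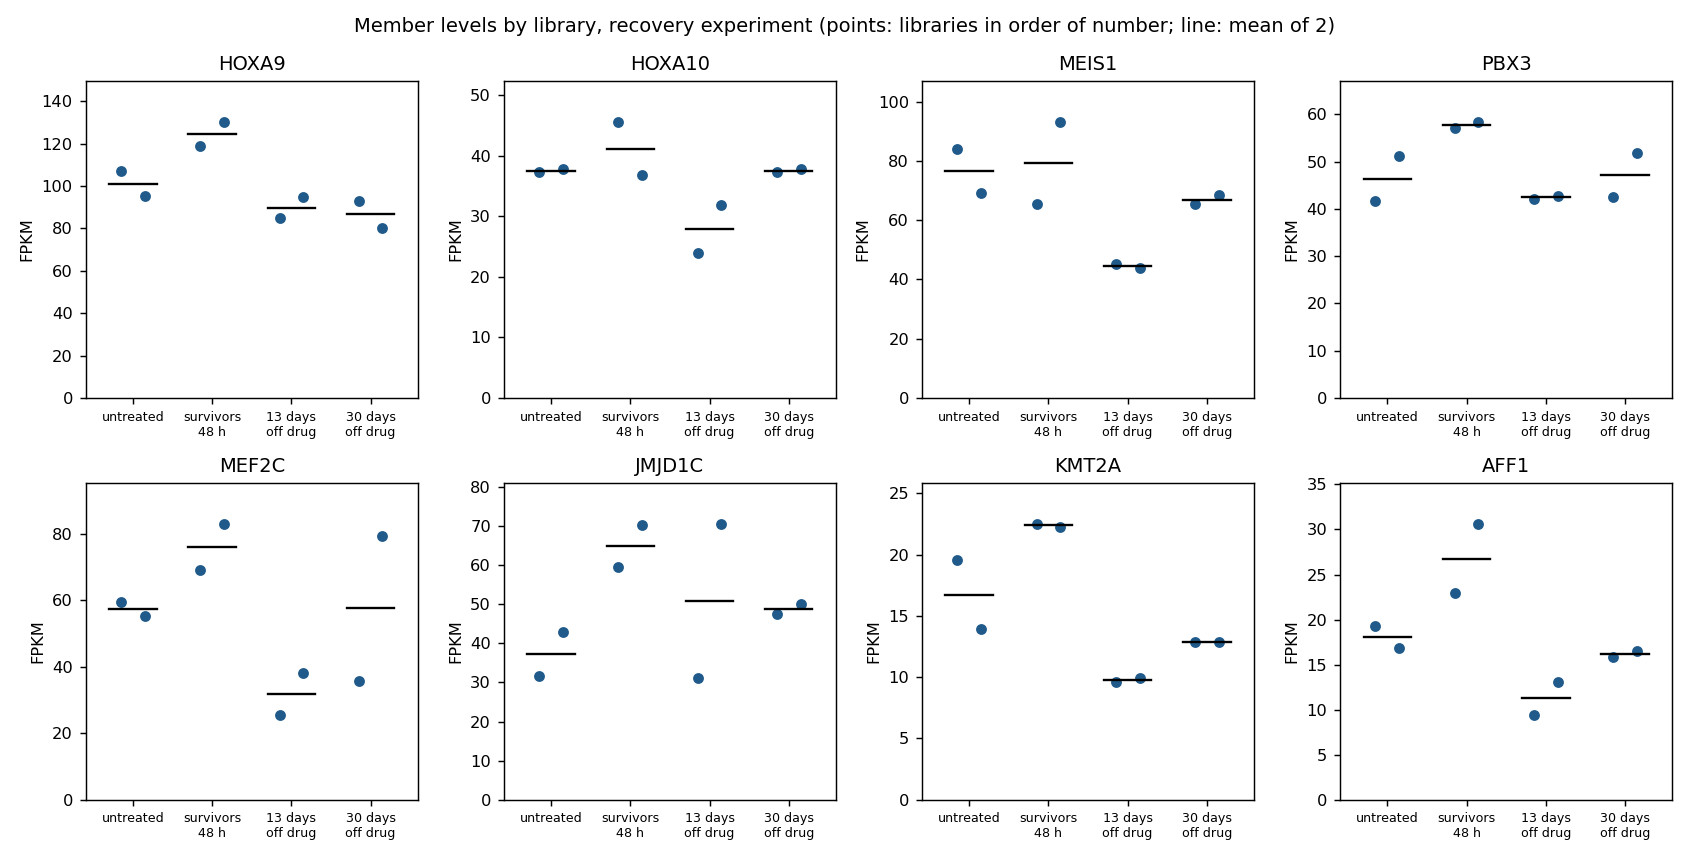
The level of the 8 tested members in each of the 8 libraries of the recovery experiment, in FPKM on an axis from 0, with the mean of 2 as a line. By mean, survivors stand highest and cells 13 days off drug lowest for KMT2A (22.3 to 22.5 against 9.6 to 9.91 FPKM), AFF1, MEIS1, MEF2C, HOXA10 and PBX3. HOXA9 is lowest by mean at 30 days, and JMJD1C of 13 days is split between 31.1 and 70.5 FPKM.

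After 13 days without drug most members lay lower. Summed myelomonocytic markers stood at 5150 to 7610 FPKM there, against 1370 to 1700 FPKM in untreated cells, 1150 to 1910 FPKM in survivors and 1230 to 1320 FPKM at 30 days. Of this LYZ alone made 4370 to 7120 FPKM at 13 days, and the other 7 markers summed to 486 to 779 FPKM, against 395 to 401 FPKM in untreated cells, 627 to 729 FPKM in survivors and 397 to 439 FPKM at 30 days. Their part in the result was not tested. KMT2A was at 9.6 and 9.91 FPKM, AFF1 at 9.4 and 13.1 FPKM, MEF2C at 25.4 and 38.2 FPKM and MEIS1 at 45.1 and 43.8 FPKM. These 4 did not overlap survivors or untreated cells, and how many of all genes did likewise was not counted. Against survivors 0 of 8 members were called, where 0.845% of genes were called, and 7 of 8 had an unadjusted p under 0.05, each lower, against 23.2% of all genes in either direction. The changes were -1.12 ± 0.21 for KMT2A (limma adjusted p = 0.072), -1.18 ± 0.24 for AFF1 (0.077), -0.80 ± 0.21 for MEIS1 (0.1) and -1.25 ± 0.39 for MEF2C (0.13), while the median of all genes was -0.178. Without library 2 of 13 days 3 members were called, AFF1 (-1.40), KMT2A (-1.14) and JMJD1C (-1.03), and the genes called overall went from 153 to 2695. HOXA9 at 84.7 and 94.7 FPKM, HOXA10 at 24 and 31.9 FPKM and PBX3 at 42.2 and 42.8 FPKM changed by -0.47 ± 0.16, -0.55 ± 0.20 and -0.43 ± 0.18.

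Against untreated cells 0 members were called at 13 days (0.381% of genes called; 3 of 8 had an unadjusted p under 0.05, against 22.5% of all genes) and 0 at 30 days (0.127%; 0 of 8, against 3.38%). The genes called at 13 days numbered 69, and from 24 to 2231 with 1 library left out, the highest without library 1 of 13 days. MEIS1 at 13 days stood at -0.77 ± 0.21 (limma adjusted p = 0.12) and KMT2A at -0.70 ± 0.21 (0.14). At 30 days MEIS1 was at 65.4 and 68.5 FPKM, KMT2A at 12.9 in both libraries, AFF1 at 15.9 and 16.5 FPKM, HOXA10 at 37.3 and 37.8 FPKM and PBX3 at 42.5 and 51.8 FPKM. HOXA9 was at 92.8 and 80.4 FPKM. HOXA9, MEIS1, KMT2A and AFF1 thus lay below both of their untreated values. The gap was small for HOXA9 (92.8 against 95.1 FPKM), MEIS1 (68.5 against 69.2 FPKM) and AFF1 (16.5 against 16.8 FPKM). JMJD1C was at 47.5 and 50 FPKM, above both of its untreated values, and MEF2C was split between 35.7 and 79.4 FPKM. How many of all genes lay wholly below or above untreated cells was not counted. From 13 to 30 days no member was called (0.403% of genes called), and MEIS1, at 0.58 ± 0.21 (adjusted p = 0.21), was the 1 member with an unadjusted p under 0.05, against 3615 of 18098 genes. The genes called there numbered 73, and from 26 to 1733 with 1 library left out, the highest without library 1 of 13 days.

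HOXB3 and HOXB4, HOX genes of another cluster, rose with quizartinib from levels far under those of HOXA9. Of 28 genes listed in the HOXB, HOXC and HOXD clusters 8 had counts, and quizartinib at 48 h called 2 higher and 1 lower (median log2 -0.215), where 59.4% of all genes were called. HOXB3 went from 3.24 to 4.04 CPM in DMSO to 12.9 to 15.2 CPM (1.95 ± 0.12, edgeR adjusted p = 2.4e-10), and HOXB4 from 6.18 to 6.99 CPM to 11.1 to 12 CPM (0.82 ± 0.12, adjusted p = 1.5e-05). HOXC10 fell from 0.548 to 1.05 CPM to 0.102 to 0.411 CPM (-1.54 ± 0.50, adjusted p = 0.013), a call lost without the libraries numbered 3 (adjusted p = 0.13). HOXB3 rose in survivors too, from 1.56 and 2.34 FPKM to 8.71 and 19.6 FPKM (limma 2.27 ± 0.47 on log2(FPKM + 1), adjusted p = 0.032), and stood at 3.86 and 5.72 FPKM after 13 days and 1.44 and 3.26 FPKM after 30 days off drug. That call in survivors, and those of MEIS3, ARID1B and LEO1 given below, were each lost when any 1 of the 4 libraries was left out (adjusted p of 0.097 to 0.19), without a change of sign. Of 5 other HOXA cluster genes with counts, the antisense RNA HOTAIRM1 rose with quizartinib from 2.69 ± 0.715 to 6.29 ± 0.401 CPM (SD, n = 3 each; 1.23 ± 0.25, edgeR adjusted p = 0.00043). HOXA10-AS fell from 4.32 ± 0.642 to 2.85 ± 0.69 CPM (-0.60 ± 0.23, adjusted p = 0.031), a call lost under upper quartile scaling (adjusted p = 0.16) and without the libraries numbered 3 (0.059).

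Of 7 TALE relatives with counts, quizartinib at 48 h raised 3 and lowered 2 (median -0.096), where 59.4% of all genes were called. MEIS3 rose from 0.256 ± 0.074 to 1.78 ± 0.625 CPM (SD, n = 3 each; 2.77 ± 0.35, edgeR adjusted p = 3.3e-06) and in survivors from 0.115 and 0.456 FPKM to 1.93 and 5.47 FPKM (limma adjusted p = 0.04), to a level far below that of MEIS1. TGIF1, a repressor of the same family, rose by 0.68 ± 0.11 and its relative TGIF2 fell by 0.58 ± 0.11. MEIS2 changed by -0.43 ± 0.17 (adjusted p = 0.043), a call that upper quartile scaling ended (adjusted p = 0.32), as did leaving out the libraries numbered 3 (0.1). With the combination TGIF2 fell further, from 53.2 CPM in DMSO to 22.8 CPM, against 35.5 CPM with quizartinib (-0.64 ± 0.11 between them, adjusted p = 0.00086), and at 5 days dexamethasone with quizartinib lowered it by 0.65 ± 0.11 (adjusted p = 0.0011). Dexamethasone alone lowered PBX4 (-0.71 ± 0.21) and TGIF2 (-0.36 ± 0.11), and without the libraries numbered 3 neither passed (adjusted p = 0.085 and 0.077).

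Among 14 measured genes of a list of 20 other MLL fusion targets, quizartinib at 48 h called 6 higher and 1 lower (median 0.14), which is 7 of 14 where 59.4% of all genes were called. FLT3, the kinase that quizartinib inhibits, rose from 317 to 450 CPM (0.51 ± 0.08, edgeR adjusted p = 6.1e-05), CPEB2 by 0.56 ± 0.17 and RUNX2 by 0.47 ± 0.11. The anti-apoptotic gene BCL2 fell from 280 to 181 CPM (-0.63 ± 0.15, adjusted p = 0.0019). The combination brought FLT3 to 661 CPM and BCL2 to 113 CPM, both past quizartinib alone (0.55 ± 0.08 and -0.68 ± 0.15, adjusted p = 0.00025 and 0.0073), and at 5 days FLT3 stood 0.48 ± 0.08 above and BCL2 0.53 ± 0.15 below quizartinib alone on the log2 scale, the latter a call lost with library totals without 7SK and 7SL (adjusted p = 0.061). Dexamethasone alone called 1 higher, GNAQ (0.46 ± 0.10), and 4 lower, where 12.1% of all genes were called. The 4 were BCL2 (-0.97 ± 0.15), RUNX2 (-0.57 ± 0.11), LMO2 (-0.43 ± 0.10) and MYB. The MYB call was lost without the libraries numbered 3 (-0.105, edgeR adjusted p = 0.36). In survivors ARID1B was the 1 of 14 called, from 9.57 to 18.9 FPKM on average (limma 0.91 ± 0.18, adjusted p = 0.031), where 14.5% of all genes were called.

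Of 9 genes for the MLL complex and menin, quizartinib at 48 h called 7 lower and none higher (median -0.41), and 4 lower under upper quartile scaling (median -0.19), where 30.4% of all genes were called lower under TMM. After 5 days 7 were lower (median -0.63), where 62.8% of all genes were called in either direction and 5268 of 16430 called lower. Of these, RBBP5 (0.02, edgeR adjusted p = 0.83) and ASH2L (-0.12, adjusted p = 0.11) were not called under upper quartile scaling. At 48 h HCFC1 fell from 496 to 202 CPM (-1.30 ± 0.12, edgeR adjusted p = 5.4e-08) and WDR5 from 88.5 to 41.6 CPM (-1.09 ± 0.10, adjusted p = 4e-08). PSIP1, which encodes LEDGF, fell from 65.4 to 31.2 CPM (-1.07 ± 0.10, adjusted p = 1.4e-07) and MEN1, which encodes menin, from 54 to 32.9 CPM (-0.72 ± 0.11, adjusted p = 2e-05). Under upper quartile scaling at 48 h these 4 were still called and the other 3 were not. In survivors none of the 9 was called, with a median of -0.52, where 14.5% of all genes were called. Of 20 genes for elongation factors, DOT1L and the PAF1 complex, quizartinib raised 6 and lowered 9 (median -0.117), and 8 and 5 under upper quartile scaling (median 0.107), where 59.4% of all genes were called. PAF1 fell from 39.1 to 20 CPM (-0.96 ± 0.16), DOT1L from 206 to 121 CPM (-0.76 ± 0.08) and LEO1 from 55 to 35.6 CPM (-0.63 ± 0.08), while CBX8 rose from 10.7 to 15.7 CPM (0.56 ± 0.18, adjusted p = 0.012). LEO1 fell in survivors as well, from 35.6 to 19.1 FPKM (limma -0.87 ± 0.19, adjusted p = 0.037). ELL2, an elongation factor, answered dexamethasone instead, from 8.03 to 26.9 CPM alone (1.74 ± 0.20, edgeR adjusted p = 1.4e-05) and from 9.43 to 29.9 CPM with quizartinib (1.66 ± 0.20).

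The genes most like HOXA9 over the 18 drug libraries were SEC11A, NT5C2, ARHGEF3, NAA30 and SPOP, by the root mean square difference of log2 CPM after centring each gene, over 9207 genes with a mean of at least 10 CPM. Their differences from HOXA9 were 0.114 to 0.134, where HOXA9 itself spread by 0.255 and the median gene differed by 0.414. HOXA10 was 23rd in that order (0.154), PBX3 530th and MEIS1 1363rd. Most like MEIS1 were EXOC1, AFTPH, CREB1, COG5 and RBL2, at 0.0762 to 0.0831, and JMJD1C was 702nd (0.182) and HOXA9 2167th. These likenesses share libraries and scaling and are a description. Exons of HOXA9 and HOXA10 overlap those of HOXA10-AS on the other strand (13.9% and 16.4% of their exon bases), which was at 3.9 CPM on average and reached at most 12.8 FPKM. Exons of KMT2A overlap AP001267.5 on the same strand (17.9%), and those of HOXA9 and HOXA10 overlap AC004080.3 on the same strand (13.1% and 9.93%), which was listed at 0 FPKM. The overlaps of MEIS1, MEF2C and JMJD1C took at most 4.01%. The library kit keeps strand, and whether the counting used it is not given in the sources used here.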

How the data were processed

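RNA was sequenced from 26 libraries of MV4-11 cells, grouped by their labels. The authors deposited whole-number counts per gene for the drug experiment, whose totals differ between libraries, so they were taken as not normalised. The recovery experiment was deposited as FPKM per gene, per the file headers. For the counts, the submitters' processing notes name GRCh38 and the tools STAR 2.7.3, RSEM, CASAVA, DESeq2 and edgeR, and for FPKM hg38, TopHat2 2.0.9, Cuffdiff and CASAVA; their roles are not given in the sources used here.

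The quasi-likelihood test of edgeR 4.0.16 in R 4.3.3 was applied to the counts of all 18 libraries after TMM scaling, and filterByExpr kept all 16430 genes. For FPKM, limma-trend (limma 3.58.1) was run on log2(FPKM + 1) over 18098 genes that reached 1 FPKM in 2 or more libraries, so folds of low genes are understated. A call is a Benjamini-Hochberg adjusted p under 0.05 over all genes tested, in 10 comparisons of the drug and 5 of the recovery experiment. The smallest p of an exact permutation test is 0.1 for 3 libraries against 3, and none was used. Both fits were tested on simulated data. DESeq2 1.42.0, other scalings, filters, blocks and left-out libraries were the alternatives.

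The members and gene lists were chosen with earlier results of these data known. From each list up to 4 called genes with the largest change in a comparison were named, and the 5 genes most like HOXA9 and MEIS1. Libraries with the same number deviated together (every correlation over 0.1) for dexamethasone against DMSO (0.2533 to 0.635) and quizartinib against DMSO (0.1002 to 0.268). The same held for the combination against quizartinib at 48 h (0.1236 to 0.271) and for no other comparison. The main fits used the group alone, so their p and SE take no account of this pairing. The replicate block, which does, was run only as an alternative. Sequences are from RefSeq on GRCh38.p14 and positions from GENCODE 29; of 56523 gene identifiers in both, 97.4% started inside the deposited locus. Python 3.11.15, pandas 2.3.3 and matplotlib 3.10.9 served for tables and plots.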

Additional observations from a re-analysis of the deposited data

Results flagged for a closer look

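By the interaction contrast in edgeR, dexamethasone acted differently with and without quizartinib at 48 h on 2 genes of the lists above. They were 1 of 14 measured MLL fusion targets and 1 of 20 elongation genes, where 2.23% of all genes were called. RUNX2, a transcription factor listed among MLL fusion targets, had an interaction of 0.67 ± 0.15 on the log2 scale (edgeR adjusted p = 0.028). Dexamethasone took it from 140 to 94 CPM without quizartinib, while the combination stood at 208 CPM and quizartinib alone at 194 CPM. AFF3, a relative of AFF1 in the elongation machinery, had an interaction of 0.79 ± 0.13 (adjusted p = 0.003). Dexamethasone took it from 193 to 141 CPM, and the combination raised it to 245 CPM from 193 CPM with quizartinib (0.35 ± 0.09, adjusted p = 0.02), though that rise was not called without the libraries numbered 3 (adjusted p = 0.099).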

How the results depend on the processing

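Over 1656 values of single members under the alternatives, 1604 kept their side of the threshold, 21 lost it, 30 passed it anew and 1 passed it with the other sign; changes of sign among values that did not pass are not counted. The value with the other sign is PBX3 for quizartinib at 5 days against DMSO of 48 h, at -0.01 under TMM and 0.21 (adjusted p = 0.033) under upper quartile scaling, which moved the median of all genes to 0.25; there 4 members were called in place of 2. For quizartinib against DMSO at 48 h the count of 3 became 5 under upper quartile scaling, 5 with library totals without 7SK and 7SL, and 5 without the libraries numbered 3, an alternative added after the data were seen. Leaving out each library in turn gave 2 to 4 there, 5 to 6 for the combination against DMSO (6 otherwise), 5 to 6 for the combination against dexamethasone, 0 to 1 for the combination against quizartinib at 5 days and 0 to 3 for 13 days off drug against survivors. For the combination against quizartinib at 48 h the count of 0 became 1 without the libraries numbered 3. For quizartinib at 5 days against 48 h it became 1 (HOXA10) with the replicate block, with only those groups fitted and without the libraries numbered 3; numbers did not pair there. Under the replicate block AFF1 also passed for the combination against DMSO (-0.18, adjusted p = 0.034), and the block changed no call in the 3 comparisons where numbers paired.

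All-gene counts behind the background shares moved too. Dexamethasone against DMSO went from 1993 to 579 with only those groups fitted, the interaction from 367 to between 189 and 591, quizartinib at 5 days against 48 h from 520 to between 133 and 1068, and the combination against quizartinib at 5 days from 1419 to between 818 and 2758. In the recovery experiment, survivors against untreated went from 2630 to between 11 and 36 when any of 4 libraries was left out and 13 days against survivors from 153 to between 11 and 2695, with a lone library assumed to vary like the others. The causes of these changes were not tested.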
